A study of Mus musculus with 18 samples.

Results

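Il4, Il13, Il5, Il9, Gata3, Il1rl1 and Il4ra are the 7 genes described here, out of 45703 genes in the table and 14229 genes tested. They were chosen by name as the cytokine genes of type 2 (Th2) and interleukin-9-making (Th9) helper T cells with a factor and receptors tied to them, and all 7 passed the filter on low values, at least 1 TPM (the deposited unit of transcript level, which corrects for gene length and depth) in at least 3 libraries. The cells were mouse Th17 cultures, helper T cells grown toward interleukin-17 production from naive CD4+ T cells for 48 h and kept for another 24 h without or with acetate. The sample protocols give 20 mM acetate and the series text 10 mM. All were then restimulated with PMA and ionomycin for 5 h, with brefeldin A and monensin added to block secretion. There were 6 groups of 3 libraries: Slc2a3-fl/fl Cd4-cre cells, which lose the glucose transporter GLUT3 (GLUT3KO), with acetate and without it, Acly-fl/fl Cd4-cre cells, which lose ATP citrate lyase (ACLYKO), with acetate and without it, and wild-type cells (WT) with acetate and without it. Cd4-Cre deletes floxed genes in developing T cells, and the WT labels name no floxed allele and no Cre. The background label reads C57BL/6 for 12 libraries and carries another number after the slash for the other 6, which are 5 of the 6 ACLYKO libraries and 1 GLUT3KO library with acetate.

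Th2 cells defend against worms and drive allergic inflammation. Interleukin-4 signals through the receptor chain IL-4Rα to STAT6, which raises the transcription factor GATA3, and GATA3 opens the locus that holds Il4, Il13 and Il5. Interleukin-9 is made by Th9 cells, which arise when TGF-beta acts together with interleukin-4, and Th17 cultures normally hold these genes low. In a bulk culture, more cells that make a transcript and more transcript per cell cannot be told apart.

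The 3 type 2 cytokine genes lie side by side on chromosome 11 (GRCm38.p6). Il4 (GeneID 16189) spans bases 53612460 to 53618665, Il13 (GeneID 16163) 53631323 to 53634702 and Il5 (GeneID 16191) 53720794 to 53725103, so that the start sites of Il13 and Il5 lie 16.0 and 102 kb from that of Il4, with the DNA repair gene Rad50 between Il13 and Il5. Il9 (GeneID 16198) is on chromosome 13, 56479277 to 56482257. Gata3 (GeneID 14462) is on chromosome 2, 9857078 to 9887953, Il1rl1 (GeneID 17082) on chromosome 1, 40404864 to 40465418, and Il4ra (GeneID 16190) on chromosome 7, 125552271 to 125579474. The 250 bases just before the annotated start of the 4 cytokine genes, from the RefSeq promoter table, are printed 5′ to 3′ on the strand of the gene, since the responses these 4 genes shared and did not share make up most of the results. Capitals mark matches to 5 motifs searched on both strands, the GATA factor motif (spelled AGATAA, with AGATAG also counted, and likewise TGATAA, with TGATAG also counted), the STAT6 motif, the STAT5 motif (TTCNNNGAA), the AP-1 motif (TGANTCA) and the NFAT motif (GGAAA). The windows are chr11:53618666-53618915 (minus strand), chr11:53634703-53634952 (minus strand), chr11:53720544-53720793 (plus strand) and chr13:56482258-56482507 (minus strand).
Il4: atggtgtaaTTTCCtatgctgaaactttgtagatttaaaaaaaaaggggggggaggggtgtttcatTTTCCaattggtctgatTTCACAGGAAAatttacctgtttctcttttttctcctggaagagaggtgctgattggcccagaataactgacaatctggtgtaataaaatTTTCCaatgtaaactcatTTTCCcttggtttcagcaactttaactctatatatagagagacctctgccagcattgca
Il13: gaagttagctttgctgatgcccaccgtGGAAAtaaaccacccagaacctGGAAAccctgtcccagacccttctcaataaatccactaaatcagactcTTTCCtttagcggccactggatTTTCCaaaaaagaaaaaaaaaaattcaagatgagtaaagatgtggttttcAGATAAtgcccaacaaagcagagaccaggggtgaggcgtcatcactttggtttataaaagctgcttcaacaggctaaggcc
Il5: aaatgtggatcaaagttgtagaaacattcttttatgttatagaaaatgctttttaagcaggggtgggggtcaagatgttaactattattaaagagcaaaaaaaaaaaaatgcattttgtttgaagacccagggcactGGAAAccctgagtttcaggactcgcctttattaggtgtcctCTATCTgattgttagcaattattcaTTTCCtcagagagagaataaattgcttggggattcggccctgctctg
Il9: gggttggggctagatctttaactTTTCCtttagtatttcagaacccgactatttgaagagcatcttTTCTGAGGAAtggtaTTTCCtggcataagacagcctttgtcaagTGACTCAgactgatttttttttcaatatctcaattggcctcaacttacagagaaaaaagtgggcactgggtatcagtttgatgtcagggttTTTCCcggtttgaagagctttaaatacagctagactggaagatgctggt

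Il4 and Il9 each held 1 STAT6 match, TTCACAGGAA at 167 to 158 bases before the Il4 start and TTCTGAGGAA at 184 to 175 bases before that of Il9, and in Il4 it overlapped an NFAT match. Il13 and Il5 each held 1 GATA match, AGATAA at 81 to 76 bases before the start of Il13 and CTATCT at 72 to 67 bases before that of Il5. The AP-1 match TGACTCA stood in Il9, and the NFAT letters occurred 5 times in Il4, 4 times in Il13, 2 times in Il5 and 3 times in Il9. Of 32851 mouse promoter windows of this length, 26.5% held the GATA letters, 5.85% STAT6, 7.02% STAT5, 6.75% AP-1 and 55.6% NFAT. The matches are descriptions of these windows and not measured binding. Il4ra held 1 NFAT match in the same window, and Gata3 and Il1rl1 were not searched.

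The libraries held 18.7 to 30.1 M reads in genes, with a median of 23.3 M. Changes are differences of log2(TPM + 1), each with its standard error, and this scale shrinks the change of genes near 1 TPM. Nothing in the labels says that replicates are separate animals. The p-values therefore reflect only how far these samples differ from one another, and that spread may be technical. Acly was at 7.01 to 14.4 TPM in the 6 ACLYKO libraries, against 392 to 1084 TPM in the other 12. Slc2a3 was at 4.005 to 13.6 TPM in the 6 GLUT3KO libraries, against 14.4 to 32.6 TPM in the 6 WT libraries, and the 3 untreated ACLYKO libraries (5.76, 13.1 and 11.7 TPM) lay within the GLUT3KO range. Both are levels per gene, in which deleted and remaining exons are not separated. All 6 T cell and all 7 Th17 markers were present (summed levels of 1395 to 4581 TPM and 1143 to 7012 TPM). In 4 libraries, replicate 1 of GLUT3KO, ACLYKO with acetate, ACLYKO and WT, the score on the leading component of within-group variation was above 0.2. ACLYKO replicate 1 stood furthest out (0.674). The sign of the component is arbitrary and was set to make that score positive, and the cut was applied on the positive side only. On the negative side lay ACLYKO replicates 3 (-0.400) and 2 (-0.274) and GLUT3KO replicate 2 (-0.269). They were further out than replicate 1 of WT (0.266), GLUT3KO (0.238) and ACLYKO with acetate (0.221). This component carried 63.6% of the within-group variance.

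Sums of some marker lists of other cell types were highest in GLUT3KO libraries, that of mast cells and basophils in only 2 of them. The list of 11 mast cell and basophil genes, 3 of which reached 1 TPM in 3 libraries, summed to 38.5 TPM in replicate 3 of GLUT3KO with acetate and to 25.6 TPM in replicate 3 of GLUT3KO without it, against 3.62 to 5.80 TPM in the other 4 GLUT3KO libraries and 1.96 to 6.05 TPM in the 12 ACLYKO and WT libraries. In the first of these libraries the basophil protease gene Mcpt8 stood at 13.6 TPM and the histidine decarboxylase gene Hdc at 11.0 TPM. In the second the mast cell protease gene Cpa3 stood at 7.57 TPM. Of the listed chains of the IgE receptor, Fcer1a reached 1.95 TPM, in that second library, and Ms4a2 at most 0.153 TPM in any library. Mast cells and basophils can themselves express Il4, Il13 and Il1rl1, so each result on GLUT3KO is also given without these 2 libraries where it changes. The gamma-delta T cell receptor gene Trdc led the list of 4 natural killer and innate-like T cell genes, 2 of which reached 1 TPM in 3 libraries. In that list Ncr1, Klrb1c and Zbtb16 reached at most 0.610, 0.841 and 1.47 TPM in any library. That list summed to 54.9 to 101 TPM in GLUT3KO with acetate, 36.6 to 89.4 TPM in GLUT3KO, 9.57 to 13.3 TPM in ACLYKO with acetate, 11.1 to 20.7 TPM in ACLYKO, 3.52 to 4.28 TPM in WT with acetate and 2.43 to 4.05 TPM in WT. The eosinophil and neutrophil list, with 2 of 7 genes past that level, Siglecf the most abundant and Elane at 0 throughout, summed to 5.14 to 10.9 TPM in GLUT3KO with acetate, 2.195 to 4.94 TPM in GLUT3KO and 0.705 to 2.79 TPM in the other 4 groups. Of 5 genes of ILC2, the innate lymphocytes that make type 2 cytokines, Rora, which Th17 cells also use, was the most abundant, and Il17rb and Nmur1 reached at most 0.125 and 0.0986 TPM. Its sum was 20.6 to 24.3 TPM in GLUT3KO with acetate, 13.9 to 16.5 TPM in GLUT3KO and 4.21 to 14.1 TPM in the other groups. The lists of B cell, macrophage and dendritic cell, and CD8 T cell genes summed to at most 5.61, 9.64 and 19.9 TPM in any library. The part of these cells in the results on GLUT3KO was not tested.

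Il4 encodes the cytokine that starts Th2 differentiation. It stood at 32.3, 19.5 and 28.7 TPM in GLUT3KO with acetate, against 3.07, 3.60 and 4.26 TPM in GLUT3KO without it. In ACLYKO it stood at 12.0, 29.7 and 29.1 TPM with acetate, against 4.83, 8.82 and 9.95 TPM without. WT libraries had 19.4, 18.4 and 17.7 TPM with acetate, against 2.67, 5.27 and 3.54 TPM without. Every acetate library lay above every untreated library of any genotype, while within each condition the genotypes overlapped, apart from GLUT3KO and ACLYKO without acetate and GLUT3KO and WT with it. Il13, whose product acts on epithelium and shares a receptor chain with interleukin-4, stood at 40.8, 28.1 and 31.2 TPM in GLUT3KO with acetate, against 10.7, 5.85 and 7.51 TPM in GLUT3KO. It stood at 12.5, 20.8 and 18.1 TPM in ACLYKO with acetate, against 0.922, 3.26 and 3.00 TPM in ACLYKO. WT had 24.9, 24.9 and 20.9 TPM with acetate, against 6.53, 6.93 and 6.60 TPM without. The 3 untreated ACLYKO libraries held the lowest Il13 of all 18, 9 to 46 reads each.

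Il5, the growth factor gene of eosinophils, was set apart by GLUT3 loss. It stood at 34.9, 19.2 and 24.1 TPM in GLUT3KO with acetate and at 14.5, 5.24 and 7.96 TPM in GLUT3KO. ACLYKO had 1.97, 2.55 and 1.66 TPM with acetate and 1.85, 1.34 and 1.80 TPM without. WT had 2.09, 1.31 and 1.83 TPM with acetate and 0.407, 0.355 and 0.232 TPM without. Every GLUT3KO library lay above every library of the other genotypes, and the 3 untreated WT libraries, with 5 to 6 reads each, lay below all others. Il9, whose product supports mast cells, was set apart by ACLY loss in the same way. It stood at 64.6, 62.1 and 59.1 TPM in ACLYKO with acetate and at 181, 104 and 111 TPM in ACLYKO. GLUT3KO had 4.09, 3.36 and 4.85 TPM with acetate and 0.546, 0.979 and 0.525 TPM without, the last 3 values being 2 to 6 reads each. WT had 9.30, 4.60 and 5.88 TPM with acetate and 1.37, 2.49 and 1.17 TPM without. The 6 ACLYKO libraries lay above all 12 others, and the 3 untreated GLUT3KO libraries below all others.

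Gata3, the lineage factor gene of Th2 cells, stood at 8.77, 5.42 and 5.46 TPM in GLUT3KO with acetate and at 15.6, 7.60 and 12.7 TPM in GLUT3KO. ACLYKO had 4.74, 4.04 and 3.69 TPM with acetate and 3.21, 3.06 and 2.21 TPM without. WT had 2.96, 3.00 and 3.22 TPM with acetate and 1.90, 1.68 and 1.79 TPM without. All 6 GLUT3KO libraries lay above the other 12, and untreated WT was lowest. Il1rl1 encodes ST2, the receptor for the alarm cytokine interleukin-33. It stood at 4.41, 5.39 and 8.43 TPM in GLUT3KO with acetate and at 2.91, 3.34 and 4.66 TPM in GLUT3KO. ACLYKO had 3.59, 2.73 and 2.22 TPM with acetate and 1.89, 1.39 and 1.51 TPM without, and WT had 0.669, 0.472 and 0.357 TPM with acetate and 0.117, 0.316 and 0.209 TPM without. All 12 knockout libraries lay above all 6 WT libraries, and the highest value of both GLUT3KO groups came from replicate 3. Il4ra, the receptor chain shared by interleukin-4 and interleukin-13, was the most abundant member in 5 of the 6 groups. It stood at 96.8, 112 and 108 TPM in GLUT3KO with acetate, 84.0, 102 and 105 TPM in GLUT3KO, 71.0, 65.2 and 67.7 TPM in ACLYKO with acetate, 23.5, 74.0 and 63.1 TPM in ACLYKO, 73.6, 71.0 and 72.7 TPM in WT with acetate and 61.4, 55.7 and 60.9 TPM in WT. The low value of ACLYKO belonged to replicate 1, and all 6 GLUT3KO libraries lay above the other 12.

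**Figure D1:**
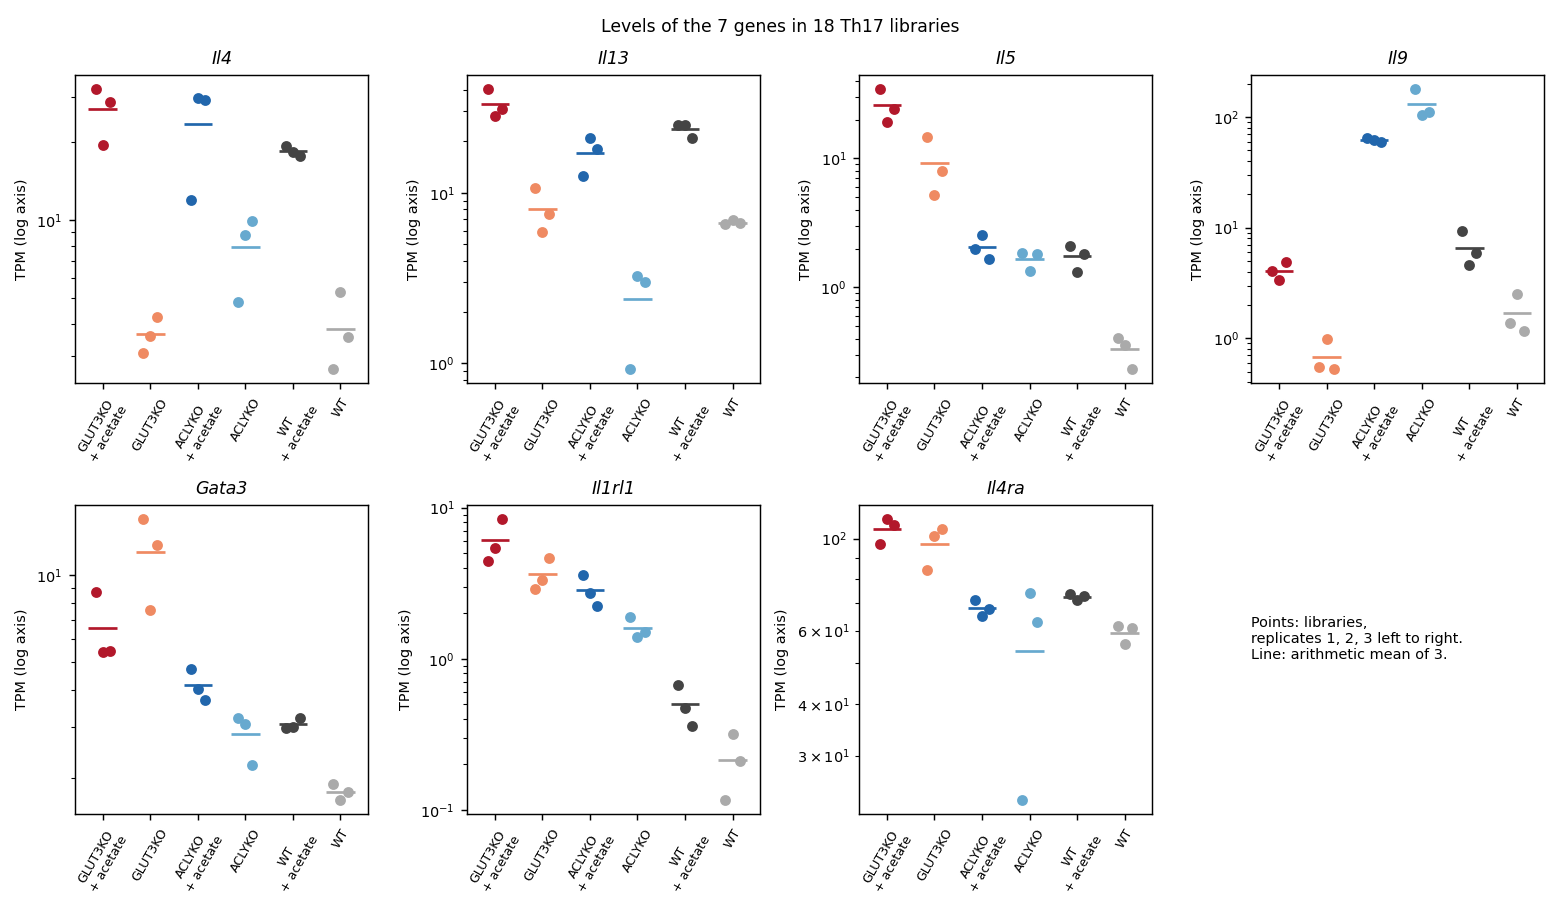
TPM of the 7 genes on log axes in the 18 libraries, by group, with points for replicates 1, 2 and 3 and a line at the mean. Il4 and Il13 are higher in every acetate group than in its untreated group, Il5 and Gata3 stand apart in GLUT3KO, and Il9 in ACLYKO (131.9 ± 42.6 TPM without acetate, against 1.68 ± 0.712 TPM in WT; SD, n = 3 each).

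Untreated GLUT3KO and WT cells were compared first, to read what GLUT3 loss did to these genes. Il5, Gata3 and Il1rl1 rose, and Il4 and Il13 did not pass the test. Il5 averaged 9.25 ± 4.79 TPM in GLUT3KO and 0.331 ± 0.0902 TPM in WT (SD, n = 3 each), a log2 change of 2.84 ± 0.27 (limma adjusted p = 2.04e-06). Gata3 averaged 11.98 ± 4.06 TPM in GLUT3KO and 1.79 ± 0.107 TPM in WT (2.17 ± 0.22, limma adjusted p = 2.89e-06) and Il1rl1 3.63 ± 0.912 TPM in GLUT3KO and 0.214 ± 0.0996 TPM in WT (1.92 ± 0.20, limma adjusted p = 4.40e-06). The 3 changes were close to these sizes without both GLUT3KO libraries numbered 3 (2.89, 2.10 and 1.76, limma adjusted p at most 7.37e-05). For Il4 the log2 change was -0.03 (95% interval -0.72 to 0.66) and for Il13 0.19 (-0.41 to 0.80). Il4ra (0.69, limma adjusted p = 0.0775) and Il9 (-0.65, limma adjusted p = 0.0632) missed the threshold although their libraries did not overlap. Il4ra passed it in a fit of these groups alone (0.0150) and without the 4 libraries with scores above 0.2 (2.81e-05). Those 4 libraries were picked by their within-group scores, so leaving them out can by itself lower the estimated spread. Without both GLUT3KO libraries numbered 3, Il4ra did not pass (0.63, limma adjusted p = 0.220). Il9 passed the threshold under 3 other settings, such as quantile normalization (0.0229). The count was 3 of 7 members higher and 0 lower, where 33.4% of all tested genes passed, 24.9% higher and 8.47% lower, and the members' median log2 change was 0.69 against 0.17 over all tested genes. Scaling by median ratios moved the median of all tested genes in this comparison to -0.01, and the same 3 members passed.

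Related genes were counted in the same fit, beside the 24.9% higher and 8.47% lower of all tested genes. Of 26 tested genes of transcription and signalling, 12 were higher and 3 lower (median log2 change 0.51, against 0.17 over all tested genes). The 12 include Tbx21, the Th1 factor gene, and Bcl6, the factor gene of follicular helper cells. Of the 26, those with the smallest adjusted p were Stat5a, Etv5 and Smad3. Stat5a, which carries interleukin-2 signals, was lower (25.2 ± 2.08 TPM in GLUT3KO and 73.5 ± 2.30 TPM in WT). Higher were Etv5, an ETS factor (27.7 ± 2.51 TPM in GLUT3KO and 8.00 ± 0.343 TPM in WT), and Smad3 of the TGF-beta pathway (48.8 ± 3.22 TPM in GLUT3KO and 13.3 ± 2.48 TPM in WT). Of 10 tested receptors 5 were higher and 1 lower, led by the interleukin-7 receptor gene Il7r (121 ± 10.9 TPM in GLUT3KO and 9.45 ± 1.47 TPM in WT), with the Th2 homing receptor gene Ccr4 lower (12.0 ± 1.28 TPM in GLUT3KO and 33.1 ± 4.85 TPM in WT) and the shared chain gene Il2rg higher (log2 change 0.63 ± 0.11). Of 10 other effector genes 6 were higher and 1 lower, among them Penk, which encodes proenkephalin (2.74 ± 0.26), the EGF-receptor ligand gene Areg (1.79 ± 0.29) and Il24 (1.48 ± 0.26). All changes named here passed limma's test (adjusted p at most 6.02e-04).

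With acetate in both groups the same 3 members passed the test for GLUT3 loss, all higher, where 30.4% of all tested genes passed, 20.9% higher and 9.5% lower. The log2 change was 3.27 ± 0.27 for Il5 (26.1 ± 7.99 TPM in GLUT3KO and 1.74 ± 0.395 TPM in WT), 2.204 ± 0.20 for Il1rl1 and 0.87 ± 0.22 for Gata3 (limma adjusted p = 5.25e-07, 1.18e-06 and 0.00694). Without both GLUT3KO libraries numbered 3, Il1rl1 had 1.98 (limma adjusted p = 4.49e-06). The intervals were -0.21 to 1.18 for Il4, -0.13 to 1.07 for Il13, -1.08 to 0.01 for Il9 and -0.08 to 1.14 for Il4ra. Of these, Il4, Il13 and Il4ra lay higher in every GLUT3KO library than in any WT library. They passed in a fit of these groups alone (limma adjusted p = 0.0457, 0.0227 and 1.99e-04) and without the 4 libraries with scores above 0.2. Those 4 libraries lie outside the groups compared here, so leaving them out changed only the estimate of the spread. Without both GLUT3KO libraries numbered 3, Il4, Il13 and Il4ra did not pass (limma adjusted p = 0.500, 0.333 and 0.335). Gata3 lost its call under quantile normalization (0.0541).

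ACLY loss was read from untreated ACLYKO and WT cells. Il9 rose furthest, to 131.9 ± 42.6 TPM in ACLYKO against 1.68 ± 0.712 TPM in WT, a ratio of 78.7 and a log2 change of 5.62 ± 0.25 (limma adjusted p = 8.66e-09). Il1rl1 rose (1.59 ± 0.260 TPM in ACLYKO and 0.214 ± 0.0996 TPM in WT, log2 change 1.09 ± 0.20, limma adjusted p = 0.00146), as did Il5 (1.66 ± 0.283 TPM in ACLYKO and 0.331 ± 0.0902 TPM in WT, 1.00 ± 0.27, limma adjusted p = 0.0194). Il13 fell to 2.39 ± 1.28 TPM in ACLYKO against 6.69 ± 0.212 TPM in WT (-1.26 ± 0.28, limma adjusted p = 0.00560), while its neighbour Il4 averaged 7.87 ± 2.69 TPM in ACLYKO and 3.83 ± 1.33 TPM in WT (0.86 ± 0.32, limma adjusted p = 0.0789). Gata3 (0.45, interval -0.02 to 0.91) and Il4ra (-0.30, -0.91 to 0.31) did not pass, and the difference of Il4ra was 0.20 without ACLYKO replicate 1, of the other sign. The count was 3 higher and 1 lower of 7, where 19.1% of all tested genes passed, 12.7% higher and 6.38% lower.

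Single libraries touched some of these values. Without ACLYKO replicate 1, Il4 passed (log2 change 1.14, limma adjusted p = 0.0204), and Il5 lost its call without WT replicate 2 (0.0547) or without WT replicate 3 (0.0702).

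Genes of the wider lists moved in both directions under ACLY loss. Of the 26 regulators 1 was higher and 4 lower in ACLYKO, beside 12.7% higher and 6.38% lower of all tested genes (median log2 change -0.32, against 0.03 over all tested genes). Among the lower were Maf, which drives Il4 and Il10 in helper T cells (9.96 ± 3.28 TPM in ACLYKO and 39.4 ± 5.64 TPM in WT), and Irs2, an adaptor of interleukin-4 signalling (3.77 ± 1.87 TPM in ACLYKO and 7.83 ± 0.440 TPM in WT), and Etv5 was higher (log2 change 0.58 ± 0.14). Of the 10 receptors Ccr4 was lower (-0.67 ± 0.16) and Il1rap, the partner chain of ST2, higher (0.58 ± 0.17). Of the 10 effectors 4 were higher, among them Areg (15.3 ± 8.46 TPM in ACLYKO, 2.02 ± 0.884 TPM in WT) and Penk (19.04 ± 7.87 TPM in ACLYKO, 3.07 ± 0.519 TPM in WT), and 3 lower, among them the secreted matrix gene Ecm1 (9.06 ± 4.10 TPM in ACLYKO, 45.6 ± 12.9 TPM in WT). These named genes passed limma's test (adjusted p at most 0.0229). With acetate in both groups, 2 members passed for ACLY loss, both higher, where 13.5% of all tested genes did, 11.5% higher and 1.98% lower. Il9 averaged 61.9 ± 2.73 TPM in ACLYKO and 6.59 ± 2.43 TPM in WT (3.10 ± 0.25, limma adjusted p = 5.58e-06) and Il1rl1 2.85 ± 0.694 TPM in ACLYKO and 0.499 ± 0.158 TPM in WT (1.35 ± 0.20, limma adjusted p = 5.85e-04). The intervals of the others were -0.46 to 0.93 for Il4, -1.07 to 0.14 for Il13, -0.43 to 0.75 for Il5, -0.12 to 0.81 for Gata3 and -0.70 to 0.52 for Il4ra.

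**Figure D2:**
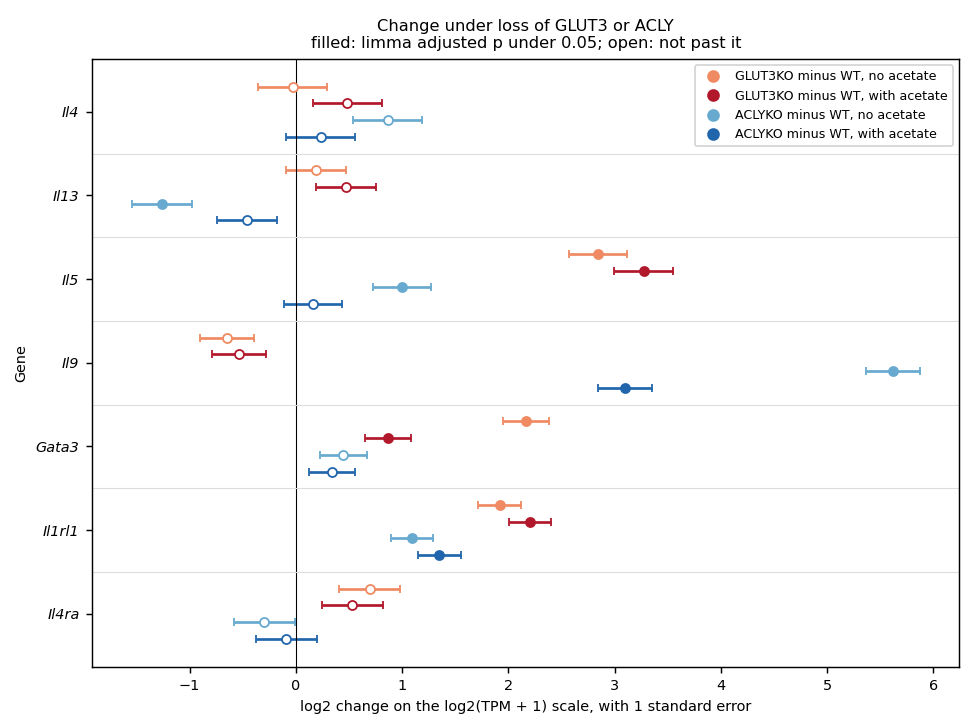
Log2 change (log2(TPM + 1) scale, with 1 standard error) of each gene in GLUT3KO minus WT and in ACLYKO minus WT, without and with acetate; filled points passed limma's adjusted p of 0.05. For GLUT3 loss Il5 lies at 2.84 without acetate and 3.27 with it and Gata3 at 2.17 and 0.87, for ACLY loss Il9 lies at 5.62 and 3.10, and Il1rl1 is higher in all 4 comparisons.

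Acetate raised Il4 and Il13 in every genotype. Il4 rose by a log2 change of 2.56 ± 0.32 in GLUT3KO, 1.42 ± 0.32 in ACLYKO and 2.05 ± 0.32 in WT (limma adjusted p = 1.58e-04, 0.00687 and 0.00160). Il13 rose by 1.95 ± 0.28 in GLUT3KO, 2.47 ± 0.28 in ACLYKO and 1.67 ± 0.28 in WT (limma adjusted p = 4.79e-04, 2.93e-05 and 0.00248). In ratios of mean TPM these were 7.37, 3.00 and 4.84 for Il4 and 4.17, 7.15 and 3.52 for Il13. Within each genotype, the acetate libraries lay above the untreated ones for both genes. Il9 rose in GLUT3KO (1.599 ± 0.25, limma adjusted p = 9.16e-04) and in WT (1.49 ± 0.25, limma adjusted p = 0.00274) but fell in ACLYKO, to 61.9 ± 2.73 TPM with acetate against 131.9 ± 42.6 TPM without (-1.03 ± 0.25, limma adjusted p = 0.0108). Il5 rose in GLUT3KO (1.46 ± 0.27, limma adjusted p = 0.00309) and in WT (1.03 ± 0.27, limma adjusted p = 0.0362), and its change in ACLYKO was 0.20 (interval -0.39 to 0.78).

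Among the factor and receptor genes, Gata3 fell by 0.76 in GLUT3KO on the log2 scale (limma adjusted p = 0.0343), with overlapping libraries, and did not pass in ACLYKO (0.44, interval -0.03 to 0.90) or WT (0.54, 0.07 to 1.01). Il1rl1 missed the threshold in GLUT3KO (0.59, limma adjusted p = 0.0684), in ACLYKO (0.56, 0.0719) and in WT (0.30, 0.472). With same-numbered cultures paired by a replicate block, it passed in GLUT3KO (limma adjusted p = 0.0238) and in ACLYKO (0.0226). Il4ra had intervals of -0.49 to 0.73 in GLUT3KO, -0.12 to 1.10 in ACLYKO and -0.33 to 0.90 in WT. In GLUT3KO 4 members were higher and 1 lower, where 12.7% of all tested genes passed, 4.86% higher and 7.89% lower. In ACLYKO 2 were higher and 1 lower, where 17.3% passed, 11.7% higher and 5.6% lower. In WT 4 were higher and 0 lower, where 6.5% passed, 4.22% higher and 2.28% lower. The members' median log2 change was 1.46 in GLUT3KO, 0.49 in ACLYKO and 1.03 in WT, beside -0.07, 0.10 and -0.02 over all tested genes. The rise of Il5 in WT lost its call when any 1 of its 6 libraries was left out (limma adjusted p = 0.0648 to 0.141). The fall of Gata3 in GLUT3KO lost it without replicate 2 or 3 of GLUT3KO with acetate or replicate 1 or 3 of GLUT3KO (0.125 to 0.166), without both libraries numbered 3 (0.311) and under median-ratio scaling (0.087).

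**Figure D3:**
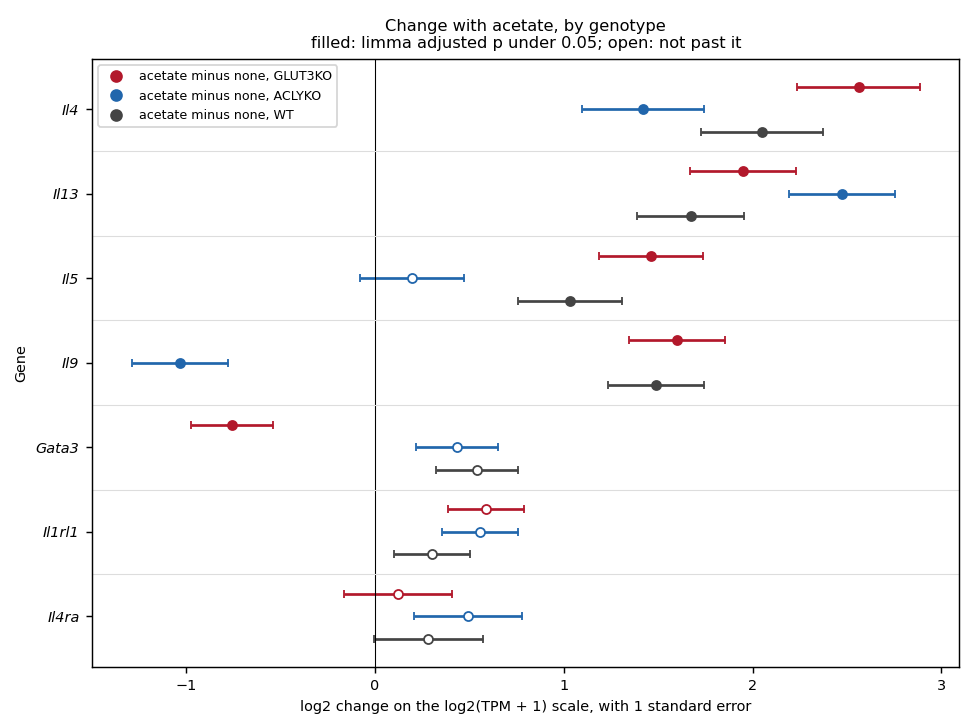
Log2 change with acetate (log2(TPM + 1) scale, with 1 standard error) in GLUT3KO, ACLYKO and WT; filled points passed limma's adjusted p of 0.05. Il4 and Il13 are right of 0 in all 3 genotypes, and Il9 lies at -1.03 in ACLYKO against 1.49 in WT.

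Whether a knockout altered the acetate response was tested as the difference of the 2 changes. For Il9 the change in ACLYKO minus that in WT was -2.52 ± 0.36 (interval -3.29 to -1.75, limma adjusted p = 0.00271), 1 of 7 members, where 1.34% of all tested genes passed, 0.78% higher and 0.562% lower. Il13 (0.80, -0.05 to 1.65), Il5 (-0.84, -1.67 to -0.01) and Il4 (-0.63, -1.61 to 0.35) did not pass (limma adjusted p = 0.493, 0.442 and 0.689). For GLUT3KO minus WT 0 of 7 members passed in limma and 0 with voom on recovered reads, where 0.773% of all tested genes passed in limma, 0.225% higher and 0.548% lower. At an unadjusted p under 0.05 there was 1, Gata3 (-1.30 ± 0.31, interval -1.96 to -0.64, limma adjusted p = 0.0818). It passed without replicate 1 of GLUT3KO with acetate (0.0461) and without replicate 2 of GLUT3KO (0.0128), and in no other alternative. Without both GLUT3KO libraries numbered 3 it was -1.13 (limma adjusted p = 0.456). For the others the intervals were -0.47 to 1.49 for Il4, -0.58 to 1.13 for Il13, -0.40 to 1.26 for Il5 and -0.66 to 0.88 for Il9.

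Among related genes, acetate raised the Th1 factor gene Tbx21 in all genotypes, at 45.4 ± 10.96 TPM with acetate and 20.9 ± 5.72 TPM without in GLUT3KO, 23.5 ± 2.55 TPM with acetate and 2.85 ± 1.09 TPM without in ACLYKO, and 19.2 ± 2.73 TPM with acetate and 4.30 ± 0.401 TPM without in WT. Il10, which many helper subsets make, stood at 307 ± 41.6 TPM with acetate and 28.9 ± 11.02 TPM without in GLUT3KO and at 377 ± 56.9 TPM with acetate and 40.7 ± 1.54 TPM without in WT. In ACLYKO it stood at 259 ± 57.2 TPM with acetate and 145 ± 20.2 TPM without. Il24 rose in the 3 genotypes by 2.47 ± 0.26 (GLUT3KO), 1.58 ± 0.26 (ACLYKO) and 2.43 ± 0.26 (WT). Irf4, which Th2 and Th9 cells need, fell in GLUT3KO (-0.89 ± 0.18) and ACLYKO (-0.79 ± 0.18), and in WT it stood at 781 ± 37.0 TPM with acetate and 1176 ± 254 TPM without. The Th2 chemokine receptor gene Ccr8 rose in ACLYKO (2.24 ± 0.31) and WT (1.64 ± 0.31). In GLUT3KO Ccr8 stood at 20.2 ± 2.43 TPM with acetate and 8.06 ± 2.68 TPM without. Areg and Penk fell in ACLYKO (-2.50 ± 0.29 and -1.37 ± 0.26), as Il9 did. Of all tested genes, 4.86% were higher and 7.89% lower with acetate in GLUT3KO, 11.7% and 5.6% in ACLYKO, and 4.22% and 2.28% in WT. Beside these shares, the 26 regulators had 2 higher and 6 lower in GLUT3KO, 6 and 1 in ACLYKO, and 3 and 1 in WT. The 10 effectors had 5 higher and 0 lower in GLUT3KO, 4 and 2 in ACLYKO, and 4 and 0 in WT, and the 10 receptors 4 and 1, 3 and 1, and 1 and 0. The genes named passed limma's test (adjusted p at most 0.0101), leaving aside Il10 in ACLYKO, Irf4 in WT and Ccr8 in GLUT3KO, for which only levels are given.

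The knockouts were also set against each other. Without acetate all 7 members passed, where 40.4% of all tested genes did, 25.2% higher and 15.2% lower. Il5 (1.85 ± 0.27), Gata3 (1.72 ± 0.22), Il13 (1.46 ± 0.28), Il4ra (0.99 ± 0.29) and Il1rl1 (0.82 ± 0.20) were higher in GLUT3KO than in ACLYKO, and Il9 (-6.27 ± 0.25) and Il4 (-0.89 ± 0.32) lower (limma adjusted p at most 0.0398). The call of Il4 was lost without any 1 of GLUT3KO replicates 1, 2 or 3 or ACLYKO replicates 2 or 3 (0.0577 to 0.131). The change of Il4ra was 0.49 without ACLYKO replicate 1, and without both GLUT3KO libraries numbered 3 the calls of Il4ra (0.0593) and Il4 were lost. With acetate in both, 4 members passed, where 37.7% of all tested genes did, 17.7% higher and 20% lower. Il5 (3.11 ± 0.27), Il13 (0.93 ± 0.28) and Il1rl1 (0.85 ± 0.20) were higher in GLUT3KO and Il9 lower (-3.63 ± 0.25), with limma adjusted p at most 0.0165. Il13 lost this call without replicate 1 of GLUT3KO with acetate (0.0781) or of ACLYKO with acetate (0.0818). These comparisons share their knockout libraries with those against WT.

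The 3 cytokine genes of chromosome 11 did not keep 1 ratio across genotypes. As a share of the summed TPM of Il4, Il13 and Il5, Il5 made up 28.7 to 32.3% in GLUT3KO with acetate, 35.7 to 51.5% in GLUT3KO, 3.40 to 7.45% in ACLYKO with acetate, 9.97 to 24.4% in ACLYKO, 2.94 to 4.52% in WT with acetate and 2.23 to 4.24% in WT. Il4 made up 63.5 to 67.5% in untreated ACLYKO, against 27.8 to 42.0% in untreated WT, and Il13 12.1 to 24.3% in ACLYKO against 55.2 to 68.0% in WT. The largest Il5 share of ACLYKO came from replicate 1, which stood apart in that component and held 9 reads of Il13.

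**Figure D4:**
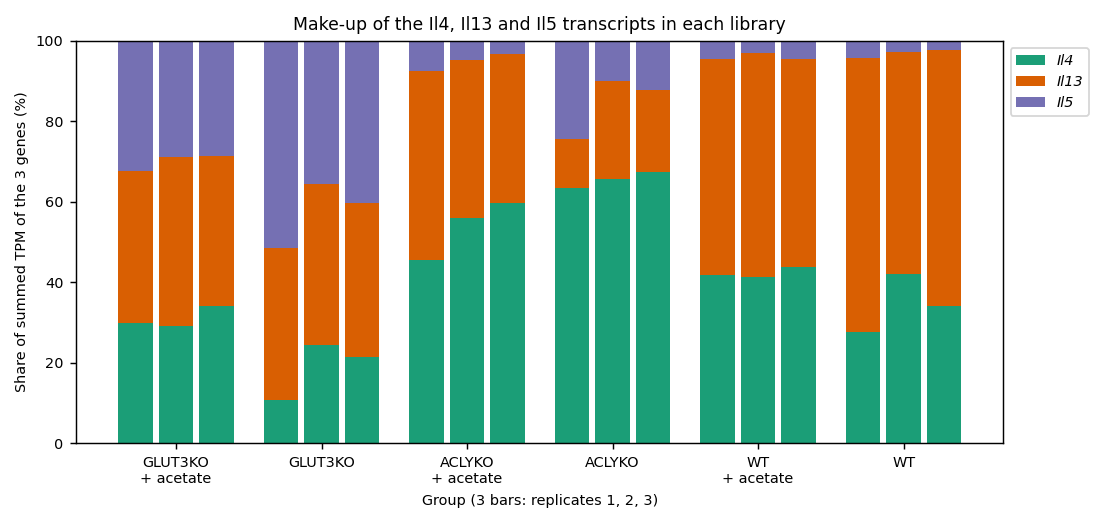
Share of Il4, Il13 and Il5 in the summed TPM of the 3 genes, 1 bar per library. Il5 fills 28.7 to 51.5% of the bar in the 6 GLUT3KO libraries and 2.23 to 4.52% in the 6 WT libraries, and Il4 fills 63.5 to 67.5% in the 3 untreated ACLYKO libraries.

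Neighbours of the cytokine genes were read in the same fits. Of 8 tested genes of the neighbour list, 2 were higher and 1 lower under GLUT3 loss, 0 higher and 3 lower under ACLY loss, and with acetate 2 higher and 1 lower in GLUT3KO, 1 and 0 in ACLYKO, and 1 and 0 in WT. The lists overlap, since Irf1 was also counted among the regulators and Csf2 and Il3 among the effectors. Over all tested genes 24.9% were higher and 8.47% lower under GLUT3 loss and 12.7% and 6.38% under ACLY loss, so that 2 of 8 higher under GLUT3 loss is near the background. With acetate the shares were 4.86% higher and 7.89% lower in GLUT3KO, 11.7% and 5.6% in ACLYKO, and 4.22% and 2.28% in WT. The 1 of 8 higher in ACLYKO is also near the background. Irf1, an interferon response factor 151 kb from the Il4 start, stood at 49.2 ± 6.28 TPM in GLUT3KO and 9.62 ± 2.11 TPM in WT (log2 change 2.25 ± 0.29, limma adjusted p = 2.92e-05) and fell with acetate in GLUT3KO (-1.43 ± 0.29, limma adjusted p = 0.00494), as Gata3 did. Il3, a growth factor gene of mast cells and basophils at 649 kb, rose with acetate in GLUT3KO (1.85 ± 0.38), ACLYKO (1.24 ± 0.38) and WT (1.48 ± 0.38), with limma adjusted p of 0.00523, 0.0351 and 0.0297. It fell under ACLY loss, as did Csf2, which encodes GM-CSF, at 631 kb (-2.64 ± 0.38 and -1.15 ± 0.28, limma adjusted p = 2.30e-04 and 0.00943). Csf2 also fell under GLUT3 loss (-1.55 ± 0.28, limma adjusted p = 5.76e-04) and rose with acetate in GLUT3KO (1.58 ± 0.28, limma adjusted p = 0.00200). Rad50, between Il13 and Il5, passed in none of the 5 comparisons of a loss without acetate or of acetate, with a standard error of 0.59 in each. Its log2 change was 0.57 under GLUT3 loss and 1.46 under ACLY loss. With acetate it was -1.08 in GLUT3KO, -0.79 in ACLYKO and -0.64 in WT, so that sizable changes are not excluded. Pdlim4, at 450 kb and not on the neighbour list, rose with acetate in GLUT3KO (3.41 ± 0.28), ACLYKO (2.99 ± 0.28) and WT (2.27 ± 0.28), with limma adjusted p of 4.41e-06, 5.38e-06 and 2.29e-04.

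**Figure D5:**
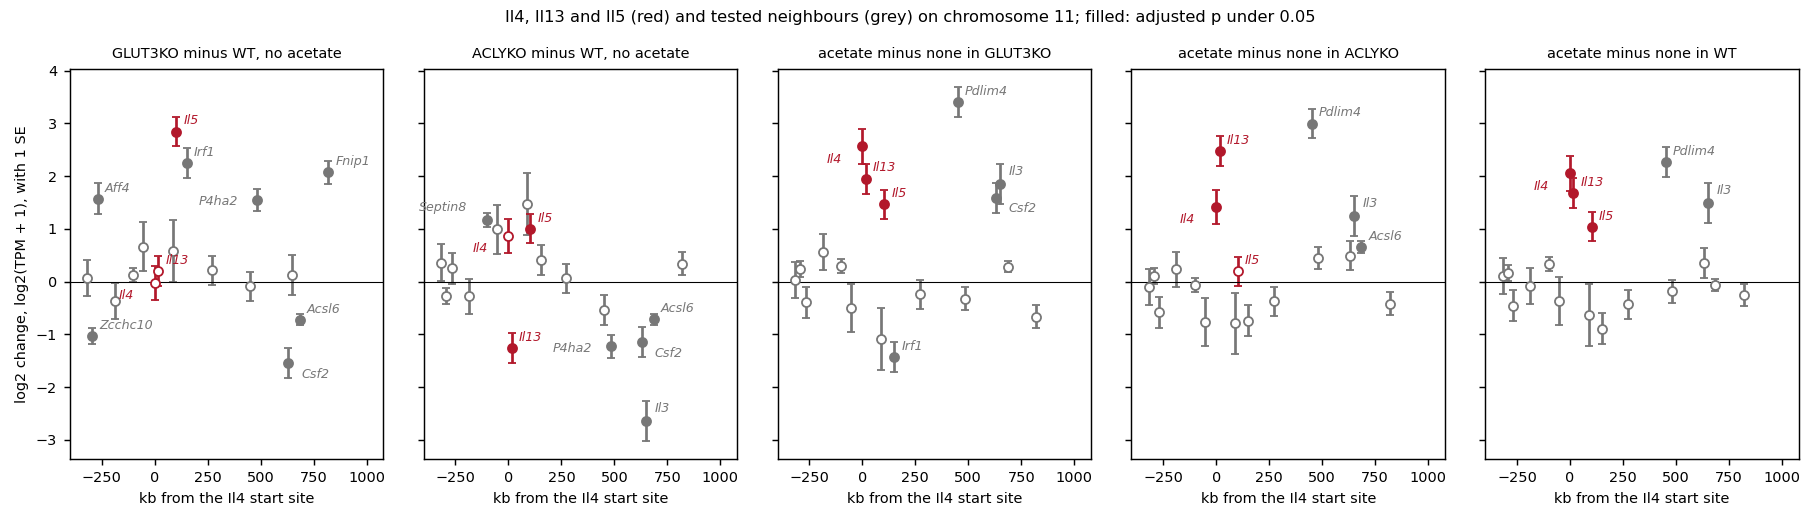
Log2 change (with 1 standard error) of Il4, Il13, Il5 (red) and tested neighbours (grey) by distance in kb from the Il4 start site, in 5 comparisons; filled points passed limma's adjusted p of 0.05. With acetate Il4 and Il13 lie at 1.42 to 2.56 in all 3 genotypes, and the neighbour Pdlim4 at 2.27 to 3.41. Under GLUT3 loss Il5 (2.84), Irf1 (2.25), Fnip1 (2.07), Aff4 (1.57) and P4ha2 (1.55) are high and Il4 and Il13 near 0, while Csf2, Zcchc10 and Acsl6 are lower.

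The genes whose levels ran most like each member were taken over the 18 libraries on log2(TPM + 1), among 9090 protein-coding candidates, as descriptions of libraries that share groups and depth. Il4 ran closest to Fyttd1 (Pearson r = 0.941), Fancf (0.919) and Il10 (0.915), and Il13 to Lgals7 (0.953), Otub2 and Cd63. Lgals7, which encodes galectin-7, averaged 44.3 ± 5.00 TPM in GLUT3KO with acetate, against 8.80 ± 3.13 TPM in GLUT3KO, and 26.4 ± 8.46 TPM in ACLYKO with acetate, against 2.11 ± 1.497 TPM in ACLYKO. Il5 ran closest to Pdcd1lg2 (0.975), which encodes the PD-1 ligand PD-L2 and averaged 164 ± 36.2 TPM in GLUT3KO with acetate, 59.3 ± 13.97 TPM in GLUT3KO and 10.6 ± 2.47 TPM in untreated WT, followed by Hbegf and Tnfaip1. Il9 ran closest to Tal2 (0.951), which averaged 17.3 ± 5.48 TPM in ACLYKO, against 1.96 ± 0.427 TPM in WT, then Syp and Trim30d. Gata3 ran closest to Ptpn22 (0.955), a phosphatase gene of T cell receptor signalling, then Peak1 and Utrn, Il1rl1 to the granzyme genes Gzmc (0.956) and Gzmb (0.955) and to Klri2, and Il4ra to Tbc1d25 (0.985), Bahd1 and Zfp703. Among the members themselves, r was 0.743 for Il4 and Il13, 0.841 for Il5 and Il1rl1, 0.799 for Il5 and Gata3, 0.492 for Il5 and Il13 and -0.287 for Il5 and Il9.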

How the data were processed

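RNA of 18 mouse Th17 cultures was made into stranded mRNA libraries and read single-end, per the labels' protocols. The submitters' processing notes name the build GRCm38.p6 and, with no role, featureCounts 1.6.4, STAR 2.7.2b, DESeq2, bcl2fastq 2.20.0.422 and cutadapt. Whether counting used strand is not stated there. The authors deposited TPM per gene, which is a unit other than counts, beside the combined exon length in bases, another such deposited value.

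TPM times exon length gave whole multiples of 1 read in 100% of values under 500 reads (tolerance 0.01 reads), from which depths and reads per gene were taken. Genes with at least 1 TPM in at least 3 libraries were fitted as log2(TPM + 1) with 6 group means in 1 model of the 18 libraries (limma 3.58.1, R 4.3.3, trend and robust on; tables in Python 3.11.15 with pandas 2.3.3). Benjamini-Hochberg adjustment ran over the 14229 tested genes in each of 11 comparisons, with a threshold of 0.05 and no minimum change. Intervals are 95% from the moderated fit. The test was tested on simulated data.

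Replicate numbers come from the labels. The residuals of same-numbered libraries correlated by more than 0.1 in every pair without and with acetate of 1 genotype (0.120 to 0.548) and of untreated ACLYKO and WT (0.285 to 0.577), which was taken as pairing, and not in every pair of the other comparisons. For replicates 1, 2 and 3 they were 0.721, 0.622 and -0.354 in untreated GLUT3KO and WT, and 0.635, 0.335 and -0.174 in untreated GLUT3KO and ACLYKO. The reported fit used no pairing, and replicate blocks were run as alternatives.

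The members and lists were chosen with earlier results of these data known. Named were the members, the targeted genes, in 5 comparisons up to 3 called genes of each related list with the smallest adjusted p, and the 3 genes most correlated with each member. The rule takes more genes than are named, and neighbours outside the lists were named from the plot of the locus. Promoter windows are those of RefSeq on GRCm38.p6 that end at the annotated start, found for 5 of the 7 members.

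Alternatives were pseudocounts of 0.1 and 5, no filter or 5 TPM, median-ratio and quantile scaling, only the groups compared, voom, robust off, replicate blocks and leaving out each library. Leaving out the 4 libraries with scores above 0.2, or both GLUT3KO libraries numbered 3, was chosen after seeing the data.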

Additional observations from a re-analysis of the deposited data

Results flagged for a closer look

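The acetate change of Il9 differed between ACLYKO and WT by a test of the difference itself (-2.52 on the log2(TPM + 1) scale, limma adjusted p = 0.00271). Il9 was lower with acetate in ACLYKO, where all 3 acetate libraries lay below all 3 untreated ones, and higher with acetate in WT, where all 3 lay above. The call held in all alternatives run, those leaving out each of the 12 libraries included.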

How the results depend on the processing

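Of 77 results for single members, 36 passed the threshold, 25 of which passed it in every alternative run, and 15 of the 41 others passed it in some alternative. Among 1424 alternative values, 1326 kept direction and side of the threshold, 43 lost the call, 29 gained it and 26, of 12 results, changed sign; 0 of these 26 passed, nor did the values as reported. The count of members called moved beyond 1.5 times its value in 5 cases besides leaving out single libraries. With only the groups compared in the fit it was 1 for acetate in ACLYKO (3 as reported), 4 for untreated GLUT3KO against ACLYKO (7 as reported) and 6 for GLUT3KO against WT with acetate (3 as reported). The last was also 6 without the 4 libraries with scores above 0.2, which lie outside the groups it compares. With a filter of 5 TPM, ACLYKO against WT with acetate gave 1 (2 as reported), since Il1rl1 was no longer tested. Leaving out single libraries gave 0 to 1 for the GLUT3KO difference in acetate response (0 as reported). The cause of the other shifts was not tested. The fit of only the groups compared ended the calls of Il13 in ACLYKO against WT without acetate (limma adjusted p = 0.129), of Il9 (0.115) and Il4 (0.179) with acetate in ACLYKO, of Gata3 with acetate in GLUT3KO (0.112), and of Il4 (0.0956), Il13 (0.0528) and Il4ra (0.192) in untreated GLUT3KO against ACLYKO.

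With the replicate block, members called numbered 6 for acetate in GLUT3KO, 4 in ACLYKO and 4 in WT, 4 for untreated ACLYKO against WT and 0 and 1 for the differences in acetate response of GLUT3KO and ACLYKO; beyond Il1rl1 with acetate it changed no call where numbers pair the cultures. In the other comparisons the block gave 3, 3, 2, 7 and 5 members, the last with Gata3 called for GLUT3KO against ACLYKO with acetate (limma adjusted p = 0.0406). A pseudocount of 0.1 and one of 5 gave log2 changes of 4.34 and 1.37 for Il5 and of 3.59 and 0.72 for Il1rl1 in untreated GLUT3KO against WT. A planned quasi-likelihood count test was not run. Untreated WT Il5 (5 to 6 reads) and untreated GLUT3KO Il9 (2 to 6 reads) are limited by depth.

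The changes of sign, in log2 values whose cause was not tested, were these. On leaving out single libraries, Il4 ranged over -0.21 to 0.18 in untreated GLUT3KO against WT and over -0.16 to 0.46 in GLUT3KO against ACLYKO with acetate. Il13 ranged over -0.0099 to 0.37 in untreated GLUT3KO against WT, and the difference in the acetate response of Il9 between GLUT3KO and WT over -0.097 to 0.35. Il4ra ranged over -0.61 to 0.20 in untreated ACLYKO against WT, over -0.0083 to 0.80 with acetate in ACLYKO and over -0.29 to 0.51 for the ACLYKO difference in acetate response, changing sign only without ACLYKO replicate 1 in each. Without the 4 libraries with scores above 0.2 these 3 values of Il4ra were 0.23, -0.039 and -0.35. In that setting Il4 in GLUT3KO against ACLYKO with acetate was -0.16 and Il13 in untreated GLUT3KO against WT was -0.025. Quantile normalization gave -0.069 for the same Il13 value, -0.069 for Il5 with acetate in ACLYKO and -0.040 for Il5 in ACLYKO against WT with acetate, and voom gave -0.062 for that of Il13. For the GLUT3KO difference in acetate response, a pseudocount of 0.1 and voom gave -0.53 and -0.68 for Il5 and -0.25 and -0.43 for Il1rl1, and for the ACLYKO difference they gave -0.17 and -0.40 for Il1rl1. Il9 had a GLUT3KO difference of -0.10 with a pseudocount of 5 and of -0.060 without both GLUT3KO libraries numbered 3.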
